A study of Mus musculus with 6 samples.

Results

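The MS4A genes encode small proteins that cross the cell membrane several times, and most of them lie side by side in a single cluster. The 6 genes described here, Ms4a4a, Ms4a4c, Ms4a6b, Ms4a6c, Ms4a6d and Ms4a7, belong to the mouse cluster on chromosome 19 and are known from macrophages, monocytes or lymphocytes. Other genes of the cluster known from lymphocytes, such as Ms4a1, are not among them. The 6 genes were taken by name from the 55487 genes counted in each library. Expression was measured by bulk RNA-sequencing of primary cortical microglia, cultured from CAG::CreERT2; Nr1d1 fl/fl pups of postnatal day 1 to 3. The 3 control cultures (Cre-) lacked CreERT2 and the 3 REV-ERBα KO cultures (Cre+) carried it, while both groups had the floxed Nr1d1 alleles and both received 4-hydroxytamoxifen (1.5 µM, 2 days). CAG is a ubiquitous promoter, so recombination was not restricted to microglia, and according to the study's methods the cells had been grown with GM-CSF in mixed glial culture before they were shaken off.

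Ms4a1 encodes CD20 of B cells and Ms4a2 the beta chain of the high-affinity IgE receptor, whereas the MS4A4A and MS4A6A region of the human cluster is known for its association with the risk of Alzheimer's disease and with the level of soluble TREM2. Several members sit beside immune receptors in the membrane, among them Ms4a4a, which pairs with Dectin-1 (Clec7a) in alternatively activated macrophages. REV-ERBα, encoded by Nr1d1, is a nuclear receptor of the circadian clock that represses transcription. The question asked of these libraries was which transcripts differ when it is deleted from cultured microglia.

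The 3 genes of the Ms4a6 branch are close copies of each other, so their sequences are shown first to make clear what separates their reads. The lines below give the first 90 coding bases of the main coding transcript of each gene, read from GENCODE M21 transcripts (GRCm38), with capitals at the 19 positions where at least 1 of the 3 differs.
Ms4a6d: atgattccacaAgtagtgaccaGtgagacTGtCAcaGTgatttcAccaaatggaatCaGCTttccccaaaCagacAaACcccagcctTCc
Ms4a6c: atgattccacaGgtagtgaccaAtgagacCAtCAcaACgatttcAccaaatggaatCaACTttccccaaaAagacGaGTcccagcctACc
Ms4a6b: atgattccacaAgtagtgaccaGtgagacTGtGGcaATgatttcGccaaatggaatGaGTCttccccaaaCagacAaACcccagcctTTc
Ms4a6d differed from Ms4a6b at 8 of these positions and from Ms4a6c at 12, and Ms4a6c differed from Ms4a6b at 18. Over the whole coding sequence, identity was 84.9% between Ms4a6c and Ms4a6b (654 aligned bases), 80.6% between Ms4a6b and Ms4a6d (727 bases) and 77.2% between Ms4a6c and Ms4a6d (663 bases). Ms4a4a and Ms4a4c were less alike, with 69.5% identity over 266 aligned bases. The encoded proteins are of similar size, from 217 residues for Ms4a6c to 267 for Ms4a7. Local matches of at least 100 bases were also sought between all annotated transcripts of the branch. The match of highest identity had 93.4% over 379 aligned bases for Ms4a6b and Ms4a6d. For Ms4a6c and Ms4a6b it had 90.5% over 431 aligned bases. At the setting of at least 100 bases with at least 95% identity, the main transcripts of Ms4a7, Ms4a4a, Ms4a4c, Ms4a6b and Ms4a6d matched no other gene, whereas that of Ms4a6c matched 8, with the longest match (990 bases) to BE692007, which overlaps it on the opposite strand. Counts are summed over all exons of a gene, and with all annotated transcripts included Ms4a7 matched 8 other genes and Ms4a6d 10 at the same setting. The libraries were made with a kit that does not mark strand, so reads of Ms4a6c and BE692007 cannot be told apart where they overlap, and the low values of Ms4a6c are uncertain in that respect. Gm19261, an antisense transcript, likewise overlaps the start of Ms4a6b.

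Of the 6 genes, 5 had an entry in the RefSeq table of promoters (GRCm38.p6), each a window of 250 bases before and 50 after the start site. Ms4a6d, the most abundant of the 6, had no entry, so its promoter was not searched. The windows of Ms4a6c and Ms4a6b are shown because they keep the copy relation outside the coding sequence, with an identity of 83.1% over 213 aligned bases. Capitals mark the longest run that both share, 48 bases. The Ms4a6c window is chr19:11469118-11469417 and the Ms4a6b window chr19:11518309-11518608, both on the plus strand.
Ms4a6c promoter: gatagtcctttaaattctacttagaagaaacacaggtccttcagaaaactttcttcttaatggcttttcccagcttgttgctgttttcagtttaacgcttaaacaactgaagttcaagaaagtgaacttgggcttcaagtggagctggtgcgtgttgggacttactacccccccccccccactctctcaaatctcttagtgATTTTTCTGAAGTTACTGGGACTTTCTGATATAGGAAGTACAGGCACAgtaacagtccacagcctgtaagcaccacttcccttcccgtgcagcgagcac
Ms4a6b promoter: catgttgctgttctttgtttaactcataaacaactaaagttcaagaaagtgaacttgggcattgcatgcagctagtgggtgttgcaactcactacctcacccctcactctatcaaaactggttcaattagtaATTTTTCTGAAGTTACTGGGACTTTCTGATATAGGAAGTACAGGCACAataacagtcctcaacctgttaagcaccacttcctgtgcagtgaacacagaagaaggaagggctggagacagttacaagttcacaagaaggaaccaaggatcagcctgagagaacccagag
The windows of the 5 genes were searched on both strands for 4 motifs. The half-site AGGTCA, bound by REV-ERB and ROR receptors, was present in 16.3% of the 32851 promoters of the table and in none of the windows of these genes. GAGGAAGT, a PU.1 motif (3.20% of promoters), and TTNNGCAA, a C/EBP motif (10.8%), were not found there either. TGANTCA, searched as the AP-1 motif with any base at N, was present in 7.81% of promoters. It matched in the window of the more downstream of the 2 Ms4a7 start sites, with its first base at position -81 from that start. The match was TGATTCA, with T at the open base, so it matches this loose pattern and is not by itself an AP-1 site. That window is chr19:11334646-11334945 on the minus strand, and it is shown with the matched letters in capitals.
Ms4a7 promoter: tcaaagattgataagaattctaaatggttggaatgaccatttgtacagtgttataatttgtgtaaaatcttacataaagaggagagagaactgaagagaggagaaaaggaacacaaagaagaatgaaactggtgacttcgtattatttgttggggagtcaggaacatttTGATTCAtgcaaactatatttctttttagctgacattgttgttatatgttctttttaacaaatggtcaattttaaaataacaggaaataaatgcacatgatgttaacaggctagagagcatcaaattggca
A match of letters is a description only, and a window without a match says nothing about binding elsewhere in the gene.

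In these microglia the cluster was carried by 2 genes. Ms4a6d and Ms4a7 together held 98.2% to 99.0% of the counts of the 6 genes in each library, Ms4a6c and Ms4a6b stood close to 1 CPM (counts scaled to a common library total), and Ms4a4a and Ms4a4c were below it in all 6 libraries. Neither Ms4a6d nor Ms4a7 passed the test between Cre- and Cre+ cultures, and their 95% intervals reached at most 0.20 on the log2 scale in either direction. Counts were tested with edgeR (quasi-likelihood) and Benjamini-Hochberg adjustment over the 11429 genes above 1 CPM in at least 4 libraries, and 5.07% of those genes were called at an adjusted p of at most 0.05. Of the 6 genes 3 entered it (Ms4a6d, Ms4a7 and Ms4a6c), and 0 of the 3 were called. Without adjustment 0 of the 3 had a p under 0.05, and limma and DESeq2 also called 0. Separation of the groups is common here, since in 24.0% of the tested genes every library of one group lay above every library of the other. The groups overlapped for all 6 MS4A genes, both the tested ones and those below the filter. These are too few genes to set them apart from that share. In bulk RNA, fewer cells of a type and less RNA per cell cannot be told apart.

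**Figure D1:**
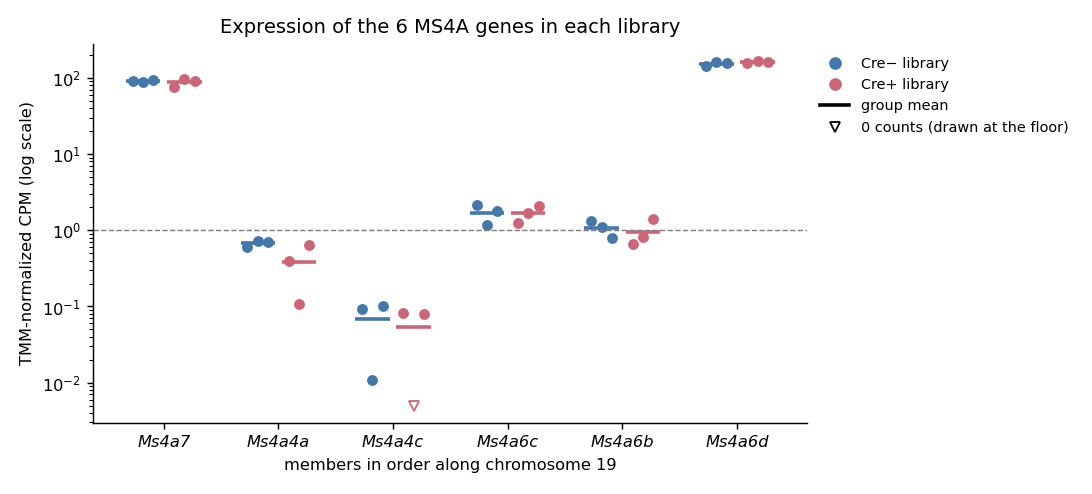
CPM on TMM-normalized totals (log scale) for the 6 genes in the order of their position, 1 point per library, with bars at the group means (n = 3); the dashed line is 1 CPM and the triangle marks a library with 0 counts. Ms4a6d and Ms4a7 lie between 76.7 and 166 CPM in all 6 libraries, and the Cre- and Cre+ points of every gene overlap.

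Ms4a6d (ENSMUSG00000024679, chr19:11586604-11604849, minus strand, 7 exons in its main transcript) is a myeloid member of the family and was the most abundant of the 6. Its level was 141, 160 and 155 CPM in Cre- cultures 1 to 3 and 158, 166 and 163 CPM in Cre+ cultures 1 to 3, on totals normalized by TMM. The lowest culture was a Cre- culture and the highest a Cre+ culture, but Cre- culture 2 lay above Cre+ culture 1, so the groups overlapped. The means were 152 ± 9.73 CPM and 162 ± 3.77 CPM (SD, n = 3 each). The log2 fold change was 0.09 (SE 0.05, 95% interval -0.02 to 0.20), which corresponds to a difference between -1.19% and 15.2%, with an adjusted p of 0.355 (edgeR). It ranked at place 738 of the 11429 tested genes by mean CPM.

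Ms4a7 (ENSMUSG00000024672, chr19:11321039-11336146, minus strand, 7 exons) is known as a gene of macrophages at the borders of the brain and of macrophages that enter it, and it is usually low in microglia of the healthy brain. Here it was abundant in both groups. The Cre- cultures had 90.8, 89.1 and 92.9 CPM and the Cre+ cultures 76.7, 97.3 and 92.1 CPM. The Cre- cultures lay close together, while Cre+ culture 1 was the lowest and Cre+ culture 2 the highest of all. The means, 90.9 ± 1.90 CPM and 88.7 ± 10.7 CPM (SD, n = 3 each), differed by a log2 fold change of -0.04 (SE 0.07, 95% interval -0.19 to 0.12), that is between -12.3% and 8.39%, with an adjusted p of 0.849 (edgeR). Leaving out Cre+ culture 1 turned the sign, to a log2 fold change of 0.06. Ms4a7 ranked at place 1372 of the tested genes.

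The balance between both genes was followed as the ratio of their counts. For each count of Ms4a7 there were 1.55, 1.80 and 1.67 counts of Ms4a6d in Cre- cultures and 2.06, 1.70 and 1.77 in Cre+ cultures. The highest ratio came from Cre+ culture 1, the culture with the lowest Ms4a7, and the other ratios of the groups overlapped. The mean ratio was 1.67 ± 0.121 against 1.84 ± 0.192 (SD, n = 3 each), a difference that an exact two-sided permutation test did not separate from the spread (p = 0.3, where 3 against 3 cannot go below 0.1).

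Ms4a6c (ENSMUSG00000079419, chr19:11469366-11482192, plus strand, 7 exons), which is known from monocytes, passed the filter at a low level. The Cre- cultures had 2.15, 1.16 and 1.81 CPM (187, 107 and 162 counts) and the Cre+ cultures 1.25, 1.67 and 2.09 CPM (137, 155 and 211 counts). The groups were interleaved. The log2 fold change was -0.03 (SE 0.26, adjusted p = 0.971, edgeR), and the 95% interval, from -0.58 to 0.52, leaves room for a difference between -33.2% and 43.3%. The sign turned when Cre- culture 1 (0.16), Cre- culture 3 (0.01) or Cre+ culture 1 (0.14) was left out. BE692007 on the opposite strand had 43, 9 and 23 counts in Cre- and 26, 17 and 40 counts in Cre+ cultures.

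Ms4a6b (ENSMUSG00000024677, chr19:11516512-11531256, plus strand, 8 exons in its main transcript), known from T cells, was above 1 CPM in 3 libraries and therefore fell just short of the filter. It had 1.33, 1.10 and 0.783 CPM in Cre- cultures and 0.657, 0.806 and 1.40 CPM in Cre+ cultures, from 70 to 141 counts. Both the lowest and the highest value came from Cre+ cultures. The difference in means was -0.120 CPM (exact two-sided permutation test, p = 0.8), and with the filter set at 3 libraries the log2 fold change was -0.17 (edgeR adjusted p = 0.827). The sign of the difference turned without Cre- culture 1 (0.0104 CPM) and without Cre+ culture 1 (0.0287 CPM).

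Ms4a4a (ENSMUSG00000101389, chr19:11375523-11392790, plus strand, 7 exons), a marker of alternatively activated macrophages, was below 1 CPM in every library. It had 53, 67 and 63 counts in Cre- cultures (0.609, 0.725 and 0.704 CPM) and 43, 10 and 64 counts in Cre+ cultures (0.392, 0.107 and 0.635 CPM). Cre+ culture 2 was far below the rest and Cre+ culture 3 was within the Cre- range. The means were 0.680 ± 0.0617 CPM and 0.378 ± 0.264 CPM (SD, n = 3 each), and the exact two-sided permutation test of the difference of -0.301 CPM gave p = 0.2. Without Cre+ culture 2 the difference was -0.166 CPM.

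Ms4a4c (ENSMUSG00000024675, chr19:11404770-11427246, plus strand, 7 exons), an interferon-responsive member in myeloid cells, was barely detected. It had 8, 1 and 9 counts in Cre- cultures and 9, 0 and 8 counts in Cre+ cultures. The 0 in Cre+ culture 2 allows a level of up to 0.0322 CPM (3 counts, counting error only). The exact two-sided permutation test of the difference in means, -0.0140 CPM, gave p = 0.5, and the sign turned without Cre- culture 3 (0.00242 CPM) or Cre+ culture 2 (0.0129 CPM). At this depth no difference was detectable.

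To order the genes by level, counts were set on gene length, as CPM per kb of the length given in the files. In Cre- cultures Ms4a6d had 87.6 ± 5.61 CPM per kb, Ms4a7 20.4 ± 0.426, Ms4a6c 0.832 ± 0.246, Ms4a4a 0.813 ± 0.0738, Ms4a6b 0.239 ± 0.0617 and Ms4a4c 0.0387 ± 0.0283 (SD, n = 3 each). The neighbours Ms4a6c and Ms4a4a did not differ beyond their spread, and the other neighbours in this order did not overlap. In Cre+ cultures the order of the means was the same, with 93.5 ± 2.17 CPM per kb for Ms4a6d, 19.9 ± 2.41 for Ms4a7, 0.814 ± 0.206 for Ms4a6c, 0.452 ± 0.316 for Ms4a4a, 0.213 ± 0.0875 for Ms4a6b and 0.0307 ± 0.0266 for Ms4a4c. There Ms4a4a overlapped both Ms4a6c and Ms4a6b. Per kb, Ms4a6d stood 105-fold above Ms4a6c in Cre- and 115-fold in Cre+ cultures, and Ms4a7 24.5-fold in each. These steps depend on the length used. Those above Ms4a6c also depend on its counts, which are uncertain where BE692007 overlaps it. With the length of the main coding transcript, Ms4a6d stood 116-fold above Ms4a6c in Cre- and 126-fold in Cre+ cultures, and Ms4a7 62.3-fold and 62.1-fold. The step between Ms4a6d and Ms4a7 was 4.29-fold in Cre- cultures with the length in the files (1735 and 4453 bases) and 1.86-fold with the main coding transcript (1418 and 1576 bases).

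**Figure D2:**
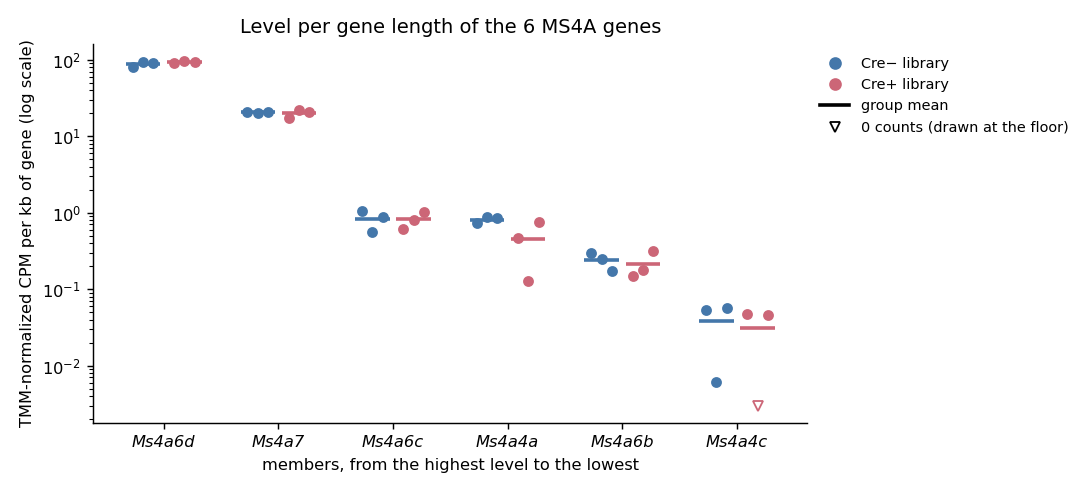
CPM per kb of gene length (log scale) of the 6 genes, from the highest to the lowest, 1 point per library, with bars at the group means (n = 3 each) and a triangle for a library with 0 counts. Ms4a6d and Ms4a7 are more than 10 times above the others, and the order of the means is the same in Cre- and Cre+ cultures.

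Within the cluster, abundant genes lay beside genes with few or no counts. Between the outermost Ms4a genes, Ms4a10 and Ms4a3 (chr19:10962293-11640851, 679 kb), GENCODE M21 annotates 35 genes, of which 22 are protein-coding and 19 are Ms4a genes. Of these 35, 4 passed the filter: Ms4a7, Ms4a6c, Ms4a6d and AW112010. Ms4a2 and Ms4a3, which lie next to Ms4a6d, had 0 to 5 counts in any library, and Ms4a5 had 0 counts in all 6. The 10 nearest tested genes on each side, which were chosen among genes that passed the filter, ranged from 2.68 to 309 CPM in their mean over the 6 libraries.

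**Figure D3:**
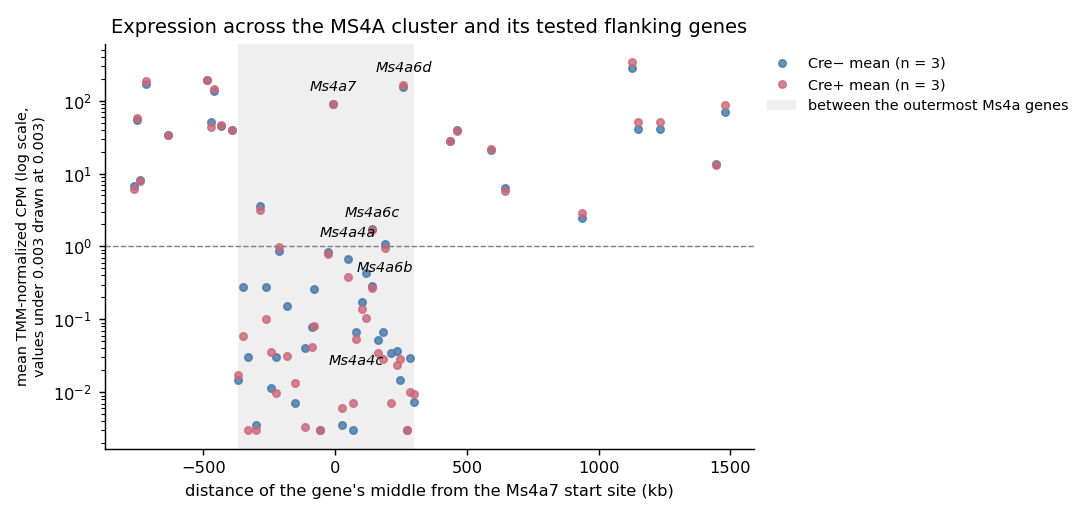
Mean CPM on TMM-normalized totals (log scale, n = 3 per group; means under 0.003 are drawn at 0.003) against the distance in kb of each gene's middle from the Ms4a7 start site, for all genes of the cluster (shaded) and 10 tested genes on each side; the dashed line is 1 CPM. Ms4a7 and Ms4a6d rise above a floor of genes near or below 1 CPM, and the Cre- and Cre+ means of both nearly coincide.

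Across cluster and flanks, 24 genes were tested, 2 were called higher in Cre+ cultures and 0 lower, where 5.07% of all tested genes were called in either direction. The median log2 fold change of the 24 was 0.02, and that of all tested genes 0.00. Both called genes lay on the far side of Ms4a6d, 1210 and 1460 kb from the Ms4a7 start site. Fam111a, which encodes a protease that restricts viral replication, had 38.6, 41.3 and 41.7 CPM in Cre- and 50.1, 51.2 and 49.8 CPM in Cre+ cultures, all Cre+ values above all Cre- values (log2 fold change 0.31, SE 0.06, edgeR adjusted p = 0.00573). Lpxn, which encodes the adaptor leupaxin, had 69.5, 76.9 and 65.2 CPM against 90.6, 82.9 and 83.9 CPM (log2 fold change 0.28, SE 0.06, edgeR adjusted p = 0.0177). The call for Lpxn was lost without Cre- culture 1, Cre- culture 3 or Cre+ culture 1 (edgeR adjusted p up to 0.0928), and that for Fam111a was kept without each library in turn. None of the tested genes inside the cluster was called, and Ms4a7, Ms4a6c and Ms4a6d had log2 fold changes of -0.04, -0.03 and 0.09.

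**Figure D4:**
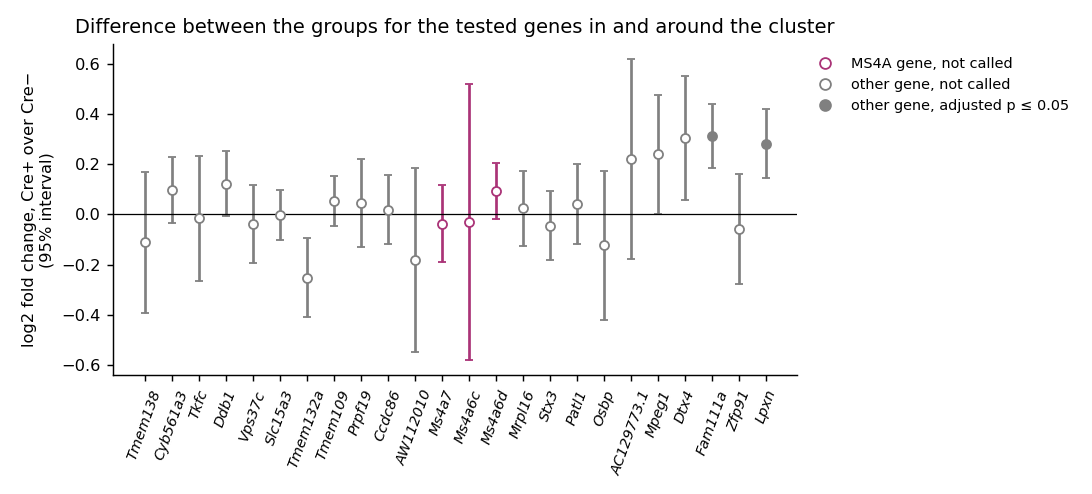
Log2 fold change (Cre+ over Cre-) with its 95% interval for the 24 tested genes in and around the cluster, in order of position; filled points have an edgeR adjusted p of at most 0.05. Ms4a7, Ms4a6c and Ms4a6d, in colour, have intervals that include 0, and the called genes Fam111a and Lpxn stand at the right end.

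The family list held 21 genes, the 19 Ms4a genes of the cluster with the related Tmem176a and Tmem176b. Of the 21, 4 were tested and 0 were called, with a median log2 fold change of 0.03. Tmem176b, a relative of the MS4A proteins in the endomembranes of myeloid cells, had 1.05, 0.985 and 1.33 CPM in Cre- and 1.41, 2.23 and 1.60 CPM in Cre+ cultures (log2 fold change 0.64, SE 0.24, edgeR adjusted p = 0.148). Tmem176a, its neighbour in the family, was below the filter. It had 51, 55 and 93 counts in Cre- and 34, 14 and 41 counts in Cre+ cultures. All its Cre+ values were below all its Cre- values, as in 23.3% of the 14719 genes below the filter with at least 20 counts. Tmem176b was separated in the other direction, and the groups did not overlap in 24.0% of the tested genes.

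The 16 Ms4a genes below the filter included 8 with at least 20 counts over all libraries, Ms4a4a, Ms4a4c and Ms4a6b among them, and all 8 had a lower mean in Cre+ cultures. That direction was common among genes at this level, since 76.1% of the 14719 genes below the filter with at least 20 counts had a lower mean in Cre+ cultures. All Cre+ libraries were below all Cre- libraries in 2 of the 8, Ms4a15 and Ms4a4b, against 23.3% of the 14719. Those genes are named here after their values were seen. Ms4a15 had 19, 35 and 20 counts in Cre- and 9, 6 and 3 counts in Cre+ cultures. Ms4a4b, a T cell member of the family between Ms4a4c and Ms4a6c, had 47, 35 and 34 counts in Cre- and 10, 10 and 12 counts in Cre+ cultures. It was called lower when all genes were tested without a filter (log2 fold change -1.94, edgeR adjusted p = 0.0396), where 1.54% of genes were called lower, and with the filter of filterByExpr (-1.97, edgeR adjusted p = 0.0360), where 2.23% were. Genes below the filter held 0.444%, 0.336% and 0.366% of the counts in Cre- libraries and 0.276%, 0.285% and 0.270% in Cre+ libraries, and the part of this shift in the values of Ms4a4b and Ms4a15 was not tested. The 6 T and NK cell markers summed to 3.02 to 3.71 CPM in Cre- and 2.99 to 3.16 CPM in Cre+ cultures, nearly all of it Lck, and Cd3d, Cd3e and Cd3g had means of at most 0.198 CPM in either group.

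**Figure D5:**
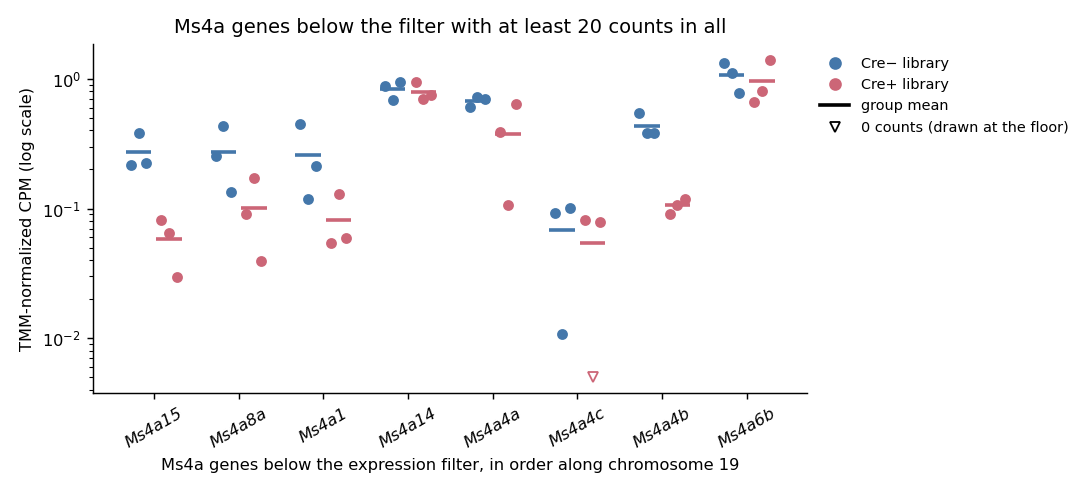
CPM on TMM-normalized totals (log scale) of the 8 Ms4a genes below the filter with at least 20 counts in all, 1 point per library, with bars at the group means (n = 3) and a triangle for 0 counts. The Cre+ points of Ms4a15 and Ms4a4b lie below all Cre- points, and those of the other 6 genes overlap them.

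Among 15 genes known as partners of MS4A proteins or of their signalling, all tested, 2 were called higher and 1 lower (5.07% of all tested genes were called), and the median over the 15 was 0.00 on the log2 scale. Clec7a, the beta-glucan receptor that Ms4a4a pairs with, rose from a high level. It had 2337, 2360 and 2355 CPM in Cre- and 2875, 2722 and 2781 CPM in Cre+ cultures. The groups were apart, as in 24.0% of all tested genes (log2 fold change 0.25, SE 0.04, edgeR adjusted p = 0.000618). Fcgr4, an activating Fc receptor for IgG, had 54.3, 59.5 and 62.4 CPM against 79.0, 71.0 and 65.0 CPM (log2 fold change 0.29, SE 0.07, edgeR adjusted p = 0.0326), and this call was kept in 2 of the 6 fits that left out a library (without Cre- culture 3 and without Cre+ culture 3). Fcgr1, the high-affinity IgG receptor, fell from 18.3, 18.4 and 17.1 CPM to 12.5, 14.1 and 13.4 CPM (log2 fold change -0.43, SE 0.09, edgeR adjusted p = 0.0106). Trem2, whose soluble form is tied to the human MS4A locus, had 1614 ± 42.0 CPM in Cre- and 1616 ± 35.8 CPM in Cre+ cultures (log2 fold change 0.00, SE 0.04, edgeR adjusted p = 0.991). Tyrobp, its signalling adaptor, had 2457 ± 114 and 2275 ± 21.7 CPM (log2 fold change -0.11, SE 0.04, edgeR adjusted p = 0.123; SD, n = 3 each).

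Of the 14 genes of alternative activation, the state in which Ms4a4a is typically found, 10 were tested, 1 was called higher and 1 lower (against 5.07% of all tested genes called), and the median over the 10 was 0.01 on the log2 scale. Mrc1, the mannose receptor, had 57.4, 57.6 and 55.1 CPM in Cre- and 70.8, 77.9 and 86.6 CPM in Cre+ cultures (log2 fold change 0.47, SE 0.07, edgeR adjusted p = 0.000669). Chil3, a secreted chitinase-like protein, had 9.21, 11.0 and 11.7 CPM against 6.34, 5.88 and 5.71 CPM (log2 fold change -0.83, SE 0.12, edgeR adjusted p = 0.000901). Both stood apart between the groups, in opposite directions, as 24.0% of all tested genes stood apart in either direction. Msr1 (higher in Cre+) and Il4ra (lower) of the same list stood apart without being called. Arg1, another gene of the list, had 10.4 ± 0.903 CPM in Cre- and 8.97 ± 6.26 CPM in Cre+ cultures (log2 fold change -0.21, SE 0.31, edgeR adjusted p = 0.782; SD, n = 3 each).

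The genes whose levels over the 6 libraries followed each tested MS4A gene most closely were sought among the 8444 tested genes whose mean reached 5 CPM, by Pearson's r of log2 CPM. For Ms4a7 these were Snx20 (r = 0.997), Emc3 (0.982) and Cyth3 (0.982). For Ms4a6d they were Atp6v1h (0.992), Smc4 (0.982) and Mrpl21 (0.981), and for Ms4a6c they were Ptpn7 (0.983), Zzz3 (0.983) and Fbxw17 (0.982). These values, over 6 libraries that share their preparation, are a description and carry no test. Among the tested MS4A genes themselves, r over the 6 libraries was 0.10 between Ms4a7 and Ms4a6d, 0.56 between Ms4a7 and Ms4a6c, and -0.39 between Ms4a6c and Ms4a6d.

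Facts that touch all of these values are as follows. The libraries held 87545868 to 110909129 counts, and 579 genes were called, 286 higher and 293 lower in Cre+ cultures. Nr1d1, the deleted gene, had 2.35, 1.20 and 1.64 CPM in Cre- and 1.00, 0.945 and 1.08 CPM in Cre+ cultures, apart but not called (log2 fold change -0.77, SE 0.25, edgeR adjusted p = 0.0945), with counts over the whole gene. Of the microglia markers, Csf1r (466 CPM in Cre-) was abundant, and P2ry12 (0.610 CPM), Sall1 (0.477 CPM), Aif1 (2.71 CPM) and Tmem119 (2.95 CPM), which mark microglia in the tissue, were low. Because Ms4a7 also marks border macrophages, their 10 markers matter for it: the sum was 71.8 to 74.9 CPM in Cre- and 85.0 to 101 CPM in Cre+ cultures, of which Mrc1 made up most. Stab1, also on the list, had 9.96 ± 0.531 and 9.85 ± 0.918 CPM (SD, n = 3 each, log2 fold change -0.01), and the 7 markers below the filter, among them Cd163, Lyve1, Cbr2, Folr2 and F13a1, had group means of at most 0.384 CPM. Pf4, also on that list, fell (log2 fold change -0.79, SE 0.16, edgeR adjusted p = 0.00956). The monocyte markers summed to 182 to 216 CPM in Cre- and 199 to 248 CPM in Cre+ cultures, nearly all of it Fn1, and the B cell markers, relevant to Ms4a1, to 0.433 to 1.05 and 0.392 to 0.923 CPM, led by Fcrla. The mast cell markers, relevant to Ms4a2, summed to 0.465 to 0.770 and 0.192 to 0.317 CPM, led by Kit. The dendritic cell markers summed to 322 to 336 CPM in Cre- and 378 to 411 CPM in Cre+ cultures, nearly all of it Itgax, which was called higher (log2 fold change 0.27, SE 0.04, edgeR adjusted p = 0.00164). The endothelial markers summed to 20.9 to 22.9 and 24.3 to 27.9 CPM, and Flt1, the most abundant of them, was called higher (log2 fold change 0.33, SE 0.08, edgeR adjusted p = 0.0245). The sums were lower in all Cre+ cultures for the neutrophil list (9.08 to 11.3 against 7.21 to 8.47 CPM, led by S100a8), the neuron list (3.45 to 4.22 against 2.51 to 2.61 CPM, led by Snap25) and the fibroblast list (1.36 to 2.21 against 0.833 to 1.07 CPM, led by Acta2). Of the mast cell, neuron and fibroblast lists 0 genes were tested. A lower Cre+ mean was common below the filter (76.1% of the 14719 genes with at least 20 counts). The sums of the astrocyte list (44.3 to 48.2 against 42.8 to 48.5 CPM, led by Aldoc) and the oligodendrocyte list (83.8 to 93.0 against 81.0 to 85.8 CPM, led by Cspg4) overlapped. The part of these lists in the values of the MS4A genes was not tested.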

How the data were processed

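RNA from 6 cultures of primary mouse microglia (3 Cre-, 3 Cre+) was sequenced as paired-end reads by the authors. The deposited counts are whole reads per Ensembl gene on GRCm38, made by the authors with STAR 2.7.9a and featureCounts 2.0.3 according to the submitters' processing notes. The deposited CPM values are these counts scaled to a common library total, and the deposited FPKM values are CPM per kb of gene length. All values here were computed from the counts, on totals of 87545868 to 110909129 per library. The CPM printed are counts scaled on the TMM-normalized total of the tested genes, which hold 98.3% to 98.9% of all counts, and the CPM per kb divide these by the gene length in the files.

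Symbols, biotypes and coordinates came from GENCODE M21 (GRCm38), which matched 55227 of 55487 identifiers. The 356 ribosomal RNA genes were removed and genes above 1 deposited CPM in at least 4 libraries were kept, as in the study's methods. Cre+ was compared with Cre- by the quasi-likelihood test of edgeR 4.0.16 in R 4.3.3 (two-sided, no covariates, Benjamini-Hochberg adjustment over 11429 genes, threshold 0.05), which was checked on simulated data. The standard error is the log2 fold change divided by the root of the F statistic. Of the genes below the filter, only the members Ms4a4a, Ms4a4c and Ms4a6b were compared by an exact permutation test. The common dispersion of 0.0100 corresponds to a coefficient of variation of 10.0% between cultures. The titles number separate cultures and do not say whether they came from different animals, so the p-values measure the spread between these cultures.

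limma 3.58.1 and DESeq2 1.42.0, other filters and scalings, a replicate block and the omission of each library served as alternatives. The omission of libraries for the genes below the filter was added after the data had been seen. Sequences were compared with blastn 2.17.0. The genes named are the 6 members, other tested genes of the family list, called genes of the neighbourhood (10 tested genes on each side) and of the partner and alternative activation lists, the 3 tested genes most like each tested member, Nr1d1, and the most abundant gene of each marker list; a gene named outside this rule is given as an example of its list. Some results for the marker lists are not reported here. The members and lists were chosen with earlier results of these data known.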

Additional observations from a re-analysis of the deposited data

How the results depend on the processing

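Over 15 alternatives (5 scalings and filters, 3 other tests, a block and 6 omitted libraries), 0 of the 3 tested MS4A genes were called in each. Ms4a6d stayed higher in Cre+ in all 15 (log2 fold change 0.04 to 0.17, adjusted p 0.136 to 0.798). Its unadjusted p was 0.00903 without a filter and 0.0384 with filterByExpr. Genes outside the family were shifted upward without a filter too. The log2 fold changes of Clec7a, Mrc1 and Chil3 were 0.33, 0.55 and -0.75 there, and 0.25, 0.47 and -0.83 in the main fit. The part of the scaling in this shift was not tested. The sign of the small differences of Ms4a7 and Ms4a6c turned. Ms4a7 was at 0.042 without a filter and 0.0066 with filterByExpr, and between -0.11 and 0.059 when a library was left out (adjusted p at least 0.499). Ms4a6c was at 0.053 and 0.015 in the same settings, and between -0.25 and 0.16 when a library was left out (adjusted p 0.694 to 0.991). With a library left out, the difference in mean CPM ran from -0.430 to -0.166 for Ms4a4a, from -0.0425 to 0.0129 for Ms4a4c and from -0.342 to 0.0287 for Ms4a6b.

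The family list had 1 gene called, Ms4a4b, without a filter and with filterByExpr. The neighbourhood had 4 genes called without a filter, 3 with the Wald test of DESeq2 and 3 with the replicate block. When a library was left out, it had 1 to 2 (1 without Cre- culture 1 or Cre- culture 3). Over all genes, 1528 were called without a filter, 886 with the Wald test of DESeq2, and 317 to 448 when a library was left out. The cause of these changes was not tested.

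With the replicate number as a block, 430 genes were called, 0 of the MS4A genes among them, and the log2 fold changes were 0.10 for Ms4a6d, -0.04 for Ms4a7 and -0.02 for Ms4a6c. The block left Fcgr4 uncalled (adjusted p = 0.0664). Same-numbered cultures did not deviate together (r = 0.0144, -0.0205 and -0.0445 across genes), so the numbers are read as names only. For genes near 100 counts, such as Ms4a6c and Ms4a6b, the spread between cultures leaves only large differences detectable.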
